A study of Homo sapiens with 16 samples.

Results

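The glucose analog deoxyglucose (2DG) was compared with no 2DG in human embryonic stem cells held in medium with TGFb. The cells were H1, an established wild-type line, labelled as human embryonic stem cells and kept before treatment in E8 medium, a defined medium with insulin, FGF2 and TGFb. The groups compared were E7+TGFb+2DG, which is E7 medium (E8 without its TGFb) with TGFb added back at 1.74 ng/mL and 2DG at 3 mM, and E7+TGFb, the same medium without 2DG. Each had 2 libraries after 24 h, so the comparison used 4 of the 16 libraries of the series, and all genes were included. The other 12 libraries, 2 in each of 6 groups, were E7, E7+ActivinA (100 ng/mL) and E7+NODAL (100 ng/mL), each with and without 2DG at the same dose and time. All 8 groups therefore lacked the TGFb of E8, and in the 4 libraries compared it was replaced. Sequencing was paired-end, on poly(A) RNA. The labels do not say whether the 2 libraries of a group came from separate cultures, so the p-values measure the spread between these libraries, which may be technical.

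2DG is taken up by glucose transporters and phosphorylated by hexokinase, and its phosphate then slows glycolysis. It also enters the making of N-linked glycans in place of mannose, and it is widely used to bring about stress of the endoplasmic reticulum (ER). Stressed cells phosphorylate the translation factor eIF2 alpha, which raises translation of the transcription factor ATF4 and, through it, genes for amino acid supply, while the unfolded protein response raises ER chaperones. In human pluripotent cells NODAL, Activin A and TGFb signal through SMAD2 and SMAD3, which keep up NODAL, LEFTY1 and LEFTY2, and 2DG was tested here beside these ligands.

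The promoters of some genes described below carry short motifs of these pathways. Promoter windows of 300 bases, from 250 before to 50 after a start, were taken from RefSeq (GRCh38.p14), 1 per gene, for 11143 of the 16714 genes tested. Both strands were searched. The CARE motif, a composite site of ATF4 with a C/EBP partner (letters TGATGNAA), was in 30 of 666 promoters of genes called higher with 2DG (4.5%), in 13 of 562 of genes called lower (2.31%) and in 181 of all 11143 (1.62%). The ER stress element, which is CCAAT, 9 bases of any kind and CCACG, was in 0.751% of promoters of genes called higher and 0.126% of all, which is 5 and 14 promoters. A carbohydrate response element, read by MondoA and its relative ChREBP, was searched as a pair of CACGTG boxes with 5 bases between them and, after TXNIP held no such match, as a pair of CACGNG boxes with the same spacing. The stricter form was in 1 promoter of all and the looser form in 15. The E2F motif (letters TTTNGCGC), read by the factors that drive S phase genes, was in 3.91% of promoters of genes called lower and 2.89% of all. A match describes the letters only and is not a site shown to be used. The stretches below show 1 or 2 genes per motif, with up to 40 bases on either side and the matches in capitals, 5′ to 3′ on the strand of the gene.
TXNIP, looser carbohydrate response element, chr1:145996611-145996707, minus strand: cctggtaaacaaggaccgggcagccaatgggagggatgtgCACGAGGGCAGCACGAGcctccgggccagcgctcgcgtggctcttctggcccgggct
ASNS, CARE, chr7:97872429-97872516, minus strand: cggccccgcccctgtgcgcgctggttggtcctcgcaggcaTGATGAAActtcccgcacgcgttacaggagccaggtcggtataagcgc
CHAC1, CARE on the opposite strand, chr15:40953222-40953309, plus strand: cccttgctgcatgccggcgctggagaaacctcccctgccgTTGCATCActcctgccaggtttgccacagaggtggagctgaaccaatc
HSPA5, ER stress element, chr9:125241351-125241449, minus strand: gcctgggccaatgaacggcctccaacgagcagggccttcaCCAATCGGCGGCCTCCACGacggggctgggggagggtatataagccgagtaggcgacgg
XBP1, ER stress element, chr22:28800570-28800661, minus strand: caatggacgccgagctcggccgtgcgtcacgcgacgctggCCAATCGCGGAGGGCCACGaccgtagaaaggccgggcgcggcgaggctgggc
MCM6, E2F motif, 4 overlapping matches in 2 places, chr2:135876482-135876635, minus strand: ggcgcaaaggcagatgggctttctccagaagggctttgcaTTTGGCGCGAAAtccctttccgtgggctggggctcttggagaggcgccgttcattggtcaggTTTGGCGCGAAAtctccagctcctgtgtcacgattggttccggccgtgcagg

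The values are normalised read counts, each a read count divided by 1 size factor per library, and depth was 14600479 to 17630329 recovered reads per library over the series. Replicates were close in both groups, with a difference of 2.1 times the counting variance in E7+TGFb+2DG and 1.6 times in E7+TGFb, against 57.3 times in E7+ActivinA. Mitochondrial genes held 5.5% and 5.55% of reads with 2DG and 5.46% and 5.56% without it. Of 23 core pluripotency genes listed in the table all were tested, and their summed level was 231680 to 232170 with 2DG and 218590 to 219860 without it. Every gene in the table had at least 1 read in each of the 16 libraries, so a marker absent from it may still have reads in some. Of markers of other cell types the table held 6 of 8 for endothelium (PECAM1 and CDH5 absent), with a summed level of 92.5 to 106 with 2DG and 155 to 179 without it. It held 12 of 21 trophoblast, amnion and surface ectoderm genes (11841 to 11859 with 2DG and 13666 to 13758 without it). It held 7 of 8 for neurons (1732 to 1785 with 2DG and 1654 to 1759 without it), 2 of 8 for hepatocytes (41.3 to 51.0 with 2DG and 44.0 to 61.9 without it, ALB absent), 1 of 8 for blood (4.35 to 4.9 with 2DG and 5.62 to 12.6 without it, PTPRC absent) and 5 of 10 for fibroblasts (3202 to 3390 with 2DG and 4334 to 4339 without it, COL3A1 and DCN absent). Of the 5 fibroblast markers 1 was called, the surface protein THY1, which pluripotent cells also carry, at 2219 and 2216 with 2DG against 3142 and 3179 without it (log2 fold change -0.51, adjusted p = 0.04, and 0.17 to 0.19 with any 1 of the 4 libraries left out).

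In TGFb medium, 2DG raised a large set of stress and amino acid supply genes and lowered NODAL, LEFTY1 and LEFTY2. Of 16714 genes tested, 914 were called higher with 2DG (5.47%) and 730 lower (4.37%), at an adjusted p under 0.05 by limma on log2 of the value plus 1, fitted with all 16 libraries. The median size of the log2 fold change was 0.75 among genes called higher and 0.59 among genes called lower, and 300 and 148 genes passed 1. In all 1644 called genes the libraries of the 2 groups did not overlap, which was also so for 65.8% of all genes tested. The error term was shared with the other groups. Without the 4 Activin A libraries 1967 genes were called higher (11.8%) and 2142 lower (12.8%), and with only the 4 libraries compared 2991 (17.9%) and 3341 (20%). With any 1 of the 4 libraries left out, 370 to 402 genes were called. The list counts below are given beside these shares of 5.47% and 4.37%. The list members were chosen with earlier results of these data known, so the counts and medians describe the lists and test nothing. Where a named gene lost its call without a library, the range of its adjusted p over these 4 fits is given.

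**Figure D1:**
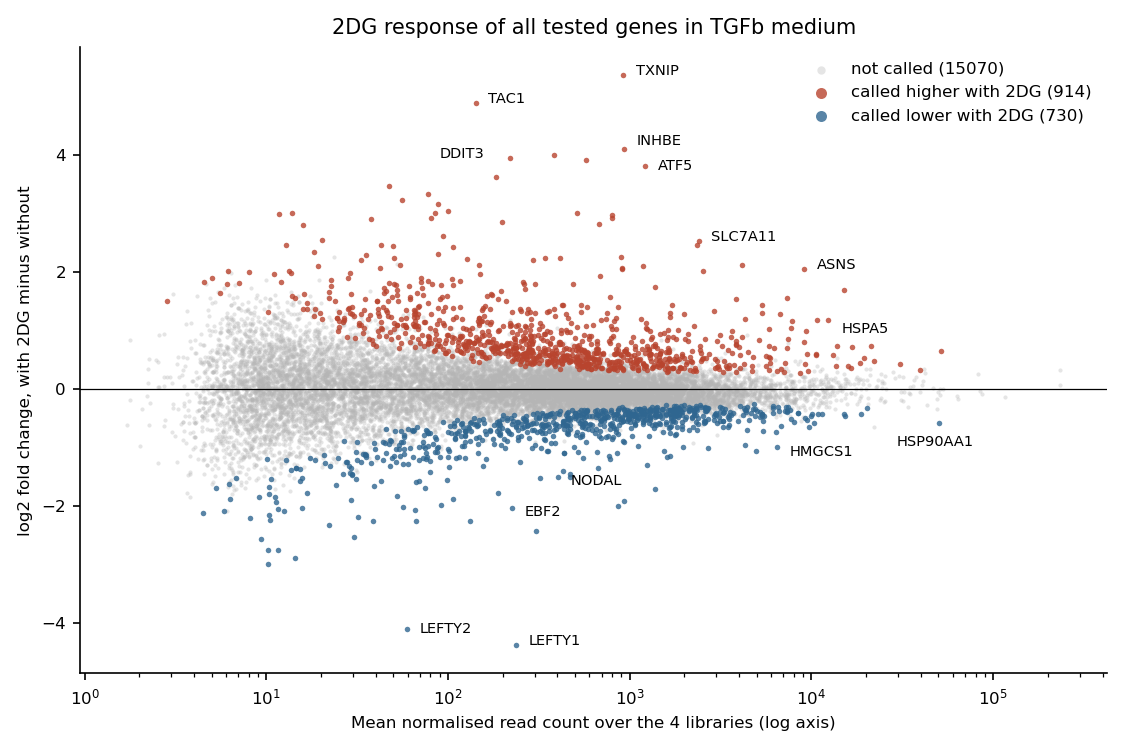
Mean normalised read count over the 4 libraries (log axis) against the log2 fold change with 2DG minus without in TGFb medium, 1 point per tested gene. Genes called higher (914) and lower (730) are marked, and among them TXNIP, at 5.35, and LEFTY1, at -4.37, stand at the ends.

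A pair of glucose-responsive arrestins was among the largest increases. TXNIP, an arrestin-like protein that limits glucose uptake and binds thioredoxin (ENSG00000265972.5, chr1:145992435-145996600 in GENCODE 29, minus strand), had 1802 and 1804 normalised read counts with 2DG, against 44.1 and 42.2 without it. That is a 41.8-fold difference of means (log2 fold change 5.35, SE 0.25, adjusted p = 8.3e-08), the largest of all called genes. Its relative ARRDC4 had 699 and 746 with 2DG and 48.3 and 40.3 without it (log2 fold change 4.0, SE 0.31, adjusted p = 1.9e-05). Both genes are textbook targets of MondoA, which senses glucose phosphates, and the replicates of each differed little beside the gap between groups. MondoA itself, listed as MLXIP, had 849 and 831 with 2DG and 1305 and 1268 without it (log2 fold change -0.61, adjusted p = 0.033, and 0.15 to 0.17 with 1 library left out). ChREBP, listed as MLXIPL, was low, at 34.3 and 33.7 with 2DG against 8.39 and 12.2 without it (log2 fold change 1.65, adjusted p = 0.036, and 0.11 to 0.22 with 1 library left out). Of the 11 members of this list 3 were called higher and 1 lower, and TXNIP and ARRDC4 alone stayed called in all 4 fits with a library left out.

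Transcripts of several genes of the ATF4 branch of the stress response were higher with 2DG. DDIT3, the stress transcription factor CHOP (ENSG00000175197.12, chr12:57516588-57521737, minus strand), had 410 and 417 with 2DG and 21 and 31.9 without it (log2 fold change 3.95, SE 0.43, adjusted p = 0.00015). ATF5, a related bZIP factor, had 2380 and 2164 with 2DG, against 164 and 158 without it (log2 fold change 3.81, adjusted p = 2.9e-05). TRIB3, a pseudokinase that ATF4 and CHOP switch on, had 924 and 902 with 2DG, against 120 and 106 without it (log2 fold change 3.01, adjusted p = 0.00021). For these 3 genes the lower of the libraries with 2DG was several times the higher of those without it. CEBPB, a C/EBP partner of ATF4, was at 808 and 711 with 2DG and 234 and 202 without it (log2 fold change 1.80, adjusted p = 0.0011). ATF4 itself, which is raised mainly at translation, had 10491 and 10727 with 2DG and 7875 and 7832 without it (log2 fold change 0.43, adjusted p = 0.038, and 0.16 to 0.19 with 1 library left out). ATF3 had 641 and 618 with 2DG, against 246 and 275 without it (log2 fold change 1.27, adjusted p = 0.013, and 0.073 to 0.1 with 1 library left out). Of 20 bZIP factors and their regulators tested, 11 were called higher and 1 lower, with a median log2 fold change of 0.44 beside -0.0044 over all genes. The count was 5 to 7 higher with 1 library left out.

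**Figure D2:**
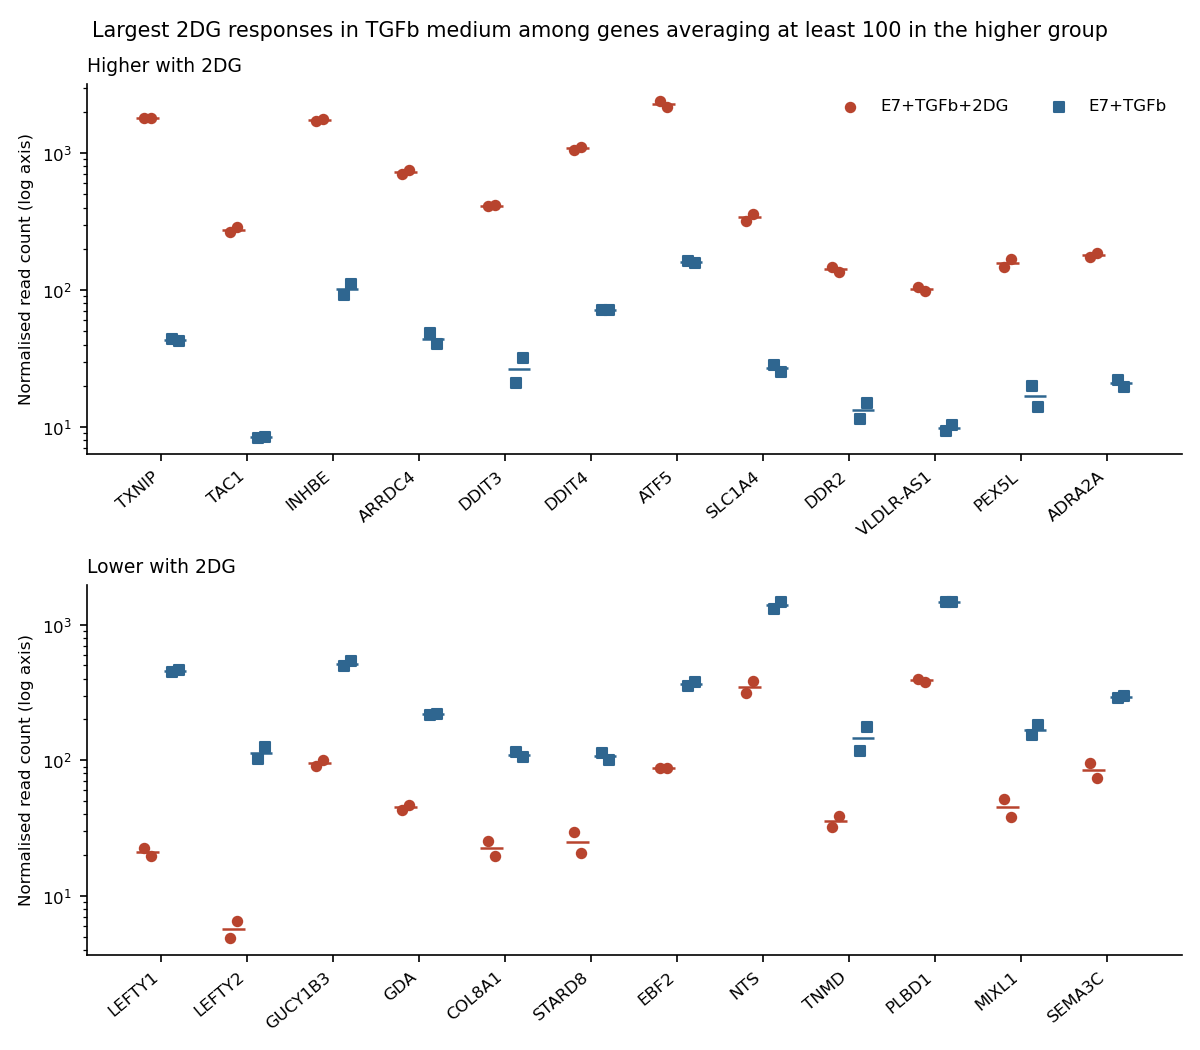
Normalised read counts (log axis) in each library of E7+TGFb+2DG (circles) and E7+TGFb (squares) for 12 called genes per direction, those of largest log2 fold change among genes averaging at least 100 in the higher group, with group means as bars. In each of the 24 genes the libraries of the 2 groups lie apart, from TXNIP, with 1802 and 1804 against 44.1 and 42.2, to SEMA3C, with 96.1 and 74 against 286 and 299.

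Genes that import and make amino acids followed. SLC1A4, a transporter of serine and alanine, had 319 and 360 with 2DG and 28.3 and 25.3 without it (log2 fold change 3.61, SE 0.37, adjusted p = 0.00011). The cystine importer SLC7A11 had 4135 and 4026 with 2DG, against 695 and 723 without it (log2 fold change 2.52, adjusted p = 0.0014). The glycine transporter SLC6A9 had 1093 in both libraries with 2DG and 273 and 298 without it (log2 fold change 1.94, adjusted p = 0.001). These 3 were several-fold higher in both libraries, and the glutamine transporter SLC1A5 (log2 fold change 1.30) and the amino acid transporter SLC43A1 (1.43) were also called in each fit with a library left out. Of 26 amino acid transporters 11 were called higher and 3 lower, with a median of 0.38 and 8 to 9 higher with 1 library left out.

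ASNS, asparagine synthetase (ENSG00000070669.16, chr7:97852118-97872542, minus strand), whose promoter carries the CARE match printed above, had 14166 and 15167 with 2DG and 3474 and 3642 without it (log2 fold change 2.04, SE 0.21, adjusted p = 0.00011). ASS1, which joins citrulline and aspartate in arginine synthesis and has many pseudogene copies that could share its reads, had 6748 and 6691 with 2DG, against 1560 and 1551 without it (log2 fold change 2.11, adjusted p = 2.9e-05). PSAT1 of serine synthesis had 22602 and 23522 with 2DG, against 6906 and 7395 without it (log2 fold change 1.69, adjusted p = 0.00036). The mitochondrial folate enzymes SHMT2 (log2 fold change 1.56, adjusted p = 0.00018) and ALDH1L2 (2.07, adjusted p = 0.0031) were higher as well. Of 25 genes of serine, glycine, one-carbon, asparagine and proline synthesis 13 were called higher and 2 lower, with a median of 0.44. With 1 library left out, 11 to 12 were called higher.

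Aminoacyl-tRNA synthetases, which charge tRNAs with amino acids, were listed by compartment. WARS had 5670 and 5795 with 2DG and 1986 and 1955 without it (log2 fold change 1.54, adjusted p = 0.00047). SARS had 7699 and 7818 with 2DG, against 2910 and 2860 without it (log2 fold change 1.43, adjusted p = 0.00038). Of 20 cytosolic synthetases 10 were called higher and 2 lower, with 5 to 6 higher with 1 library left out. The CARE letters were in 6 of their 16 promoters matched (AARS, CARS, IARS, MARS, NARS and TARS). They were in 4 of 19 for amino acid transporters, 3 of 17 for serine to proline synthesis and 2 of 16 for bZIP factors. Mitochondrial synthetases had 1 of 14, brakes on the growth kinase mTORC1 1 of 11 and ER-associated degradation 1 of 17. Glutathione and NRF2 genes had 1 of 12, secreted stress factors 0 of 5 and ER chaperones 0 of 19. Of 17 mitochondrial synthetases 2 were called lower, RARS2 (log2 fold change -0.50, adjusted p = 0.017) and IARS2 (-0.30, adjusted p = 0.044), and the other 15 were not called. Both lost their call with any 1 of the 4 libraries left out (adjusted p 0.072 to 0.14 and 0.14 to 0.26). The medians were 0.25 in the cytosolic and -0.081 in the mitochondrial list, and the difference between the lists was not tested.

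Secreted factors of stressed cells were among the largest changes. INHBE, an inhibin beta subunit that stress induces, had 1724 and 1781 with 2DG and 92.3 and 111 without it (log2 fold change 4.10, SE 0.32, adjusted p = 1.9e-05). TAC1, the precursor of substance P, had 264 and 288 with 2DG, against 8.39 and 8.43 without it (log2 fold change 4.88, adjusted p = 0.00011). GDF15, a stress hormone of the TGFb family, had 151 and 134 with 2DG, against 13.6 and 23.4 without it (log2 fold change 2.92, adjusted p = 0.0014). The libraries without 2DG were near the minimum value of 10 for TAC1 and GDF15, where counting error is largest. ADM2, a peptide of the calcitonin family (log2 fold change 2.24), and the glycoprotein hormone STC2 (2.02) were also called in each fit with a library left out, and so was VEGFA, the endothelial growth factor, at 2104 and 2143 with 2DG against 605 and 672 without it (log2 fold change 1.73, adjusted p = 0.001). Of 8 tested 6 were called higher, also with any 1 library left out, and the median was 2.13.

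Brakes on the growth kinase mTORC1 were mixed. DDIT4, a stress-induced mTORC1 inhibitor, had 1052 and 1111 with 2DG and 71.4 and 71.2 without it (log2 fold change 3.90, SE 0.37, adjusted p = 5.7e-05). SESN2, a leucine sensor that holds mTORC1 off, had 1502 and 1428 with 2DG, against 331 and 381 without it (log2 fold change 2.04, adjusted p = 0.00061), while its relative SESN1 had 354 and 329 with 2DG, against 510 and 527 without it (log2 fold change -0.60, adjusted p = 0.012, and 0.064 to 0.11 with 1 library left out). Of 14 tested 5 were called higher and 2 lower, and 3 higher with 1 library left out. CHAC1, which degrades glutathione and carries a CARE match, had 1448 and 1358 with 2DG, against 166 and 205 without it (log2 fold change 2.92, adjusted p = 0.00015). With HMOX1, heme oxygenase (1.79, adjusted p = 0.0031), and NQO1, a quinone reductase (0.88, adjusted p = 0.0031), it was among 7 of 19 glutathione and NRF2 genes called higher, the other 12 not being called, and 4 to 6 were higher with 1 library left out. HRK, a BH3-only promoter of cell death, had 641 and 720 with 2DG, against 127 and 161 without it (log2 fold change 2.24, adjusted p = 0.00011), in a list of 25 p53 and BCL2 family genes with 3 higher and 4 lower.

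ER chaperones were higher with 2DG by less than a factor of 2. HSPA5, the ER chaperone BiP (ENSG00000044574.7, chr9:125234853-125241330, minus strand), had 26046 and 27085 with 2DG and 15899 and 15862 without it (log2 fold change 0.74, SE 0.09, adjusted p = 0.00045). XBP1, a transcription factor of the unfolded protein response, had 4070 and 3989 with 2DG, against 2518 and 2352 without it (log2 fold change 0.73, adjusted p = 0.0027). The co-chaperone DNAJC3 had 1528 and 1545 with 2DG, against 963 and 947 without it (log2 fold change 0.69, adjusted p = 0.0041). The gaps were wide against the replicate differences in these genes, and HYOU1, another ER chaperone (log2 fold change 0.70, adjusted p = 0.0091), lost its call with 1 library left out (0.068 to 0.079). Of 22 ER chaperones and folding enzymes 13 were called higher and 1 lower, with a median of 0.46, 5 to 6 higher with 1 library left out and 16 higher without the Activin A libraries. The ER stress element was in 6 of their 19 promoters matched (HSPA5, HSP90B1, CALR, CANX, ERO1B and CRELD2). It was in 1 of 14 for sensors and regulators of the unfolded protein response (XBP1) and 0 of 17 for ER-associated degradation.

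HERPUD1, a membrane protein of ER-associated degradation, had 1140 and 1176 with 2DG and 385 and 396 without it (log2 fold change 1.56, adjusted p = 0.00022), and SYVN1, the ubiquitin ligase of that pathway, was also higher (log2 fold change 0.68, adjusted p = 0.0029). These 2 stayed called with any 1 library left out, in a list of 21 with 5 called higher. Of 38 genes of the hexosamine pathway and N-glycan assembly 5 were called higher and 1 lower, with a median of 0.13 and none higher in any fit with a library left out. GFPT1, the first enzyme of the hexosamine pathway, had 4043 and 4125 with 2DG, against 2122 and 2190 without it (log2 fold change 0.92, adjusted p = 0.0085, and 0.066 to 0.073 with 1 library left out).

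**Figure D3:**
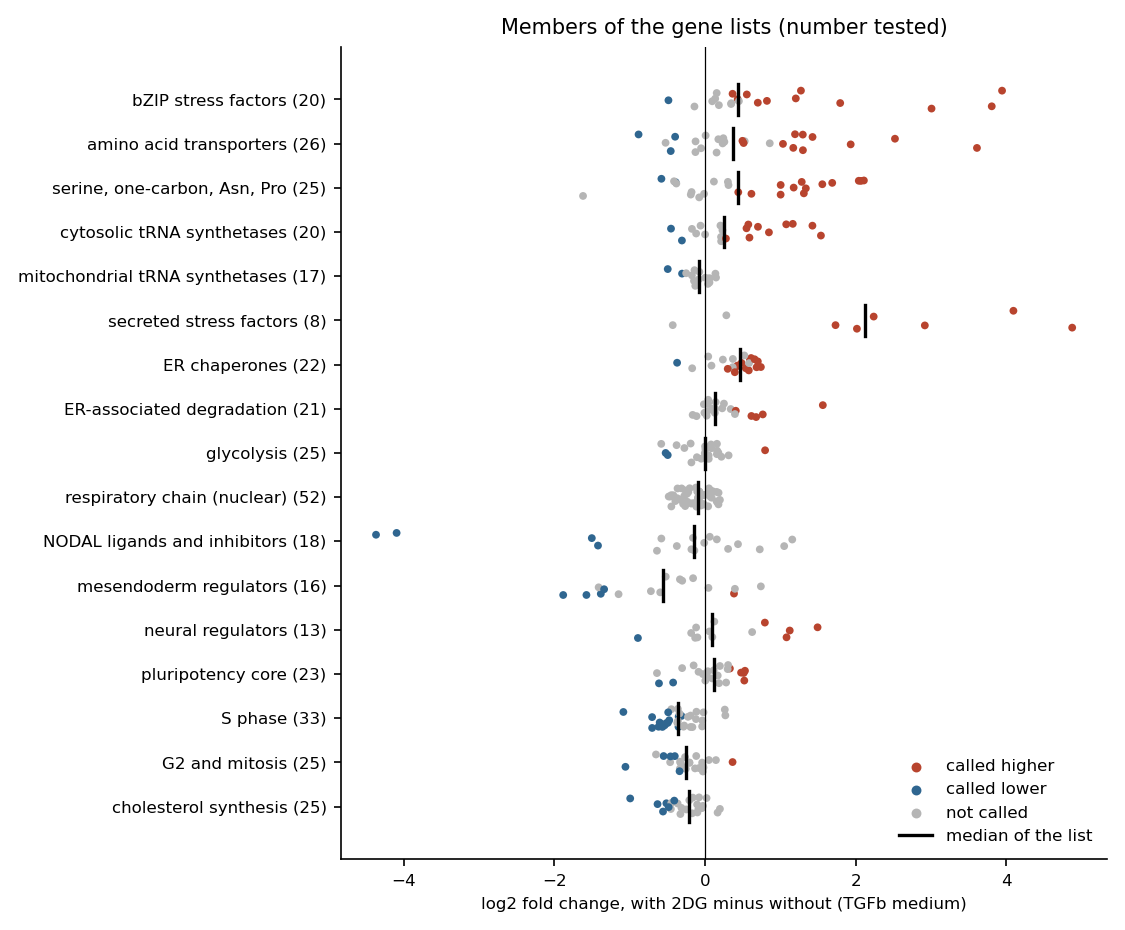
The log2 fold change with 2DG minus without in TGFb medium for each tested member of 17 gene lists, with the list medians as black bars. The secreted factors have the highest median shown, 2.13, and the mesendoderm regulators the lowest, -0.56. The members were chosen with earlier results of these data known.

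Few transcripts of glycolysis and respiration were called. HK2, a hexokinase for both glucose and 2DG, had 2243 and 2169 with 2DG and 2282 and 2079 without it (log2 fold change 0.02, SE 0.11, adjusted p = 0.95), and the groups overlapped. The glucose transporter SLC2A1 had 3780 and 3703 with 2DG, against 2636 and 2568 without it (log2 fold change 0.52, adjusted p = 0.063), which passed without the Activin A libraries (adjusted p = 0.00011). SLC2A3 had 14409 and 14784 with 2DG, against 14944 and 14869 without it (log2 fold change -0.03, adjusted p = 0.87). Of 25 glycolytic genes 1 was called higher, ENO2, the neuronal enolase (log2 fold change 0.80, adjusted p = 0.0017), and 2 lower, LDHA, lactate dehydrogenase (-0.52, adjusted p = 0.033), and ALDOC, an aldolase (-0.50, adjusted p = 0.046). LDHA and ALDOC lost their calls with any 1 library left out (0.11 to 0.21 and 0.13 to 0.27). Of 28 genes of the TCA cycle and mitochondrial carbon entry 3 were called lower and the other 25 were not called. Their median was -0.14 with 20 negative signs, and 10 were called lower without the Activin A libraries. None of 52 nuclear-encoded respiratory chain genes was called by limma, edgeR or DESeq2. By limma 4 had an unadjusted p under 0.05, and the median was -0.099, while with only the 4 libraries compared 5 were called higher and 22 lower. Likewise no call by any of the 3 tools fell on the 42 cytosolic ribosomal proteins, of which 2 had an unadjusted p under 0.05 and 40 a positive sign (median 0.14), and 33 were called higher with only the 4 libraries.

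NODAL and its inhibitors LEFTY1 and LEFTY2 were lower with 2DG in TGFb medium. LEFTY1, a secreted inhibitor of NODAL and a target of NODAL signalling (ENSG00000243709.1, chr1:225886282-225911382, minus strand), had 22.5 and 19.6 with 2DG and 446 and 463 without it, so that E7+TGFb was 21.6-fold higher (log2 fold change -4.37, SE 0.26, adjusted p = 9.5e-07). LEFTY2, its near-identical neighbour, had 4.9 and 6.53 with 2DG, against 102 and 126 without it (log2 fold change -4.10, adjusted p = 2.9e-05), and reads that fit both genes may have been assigned to either. NODAL had 246 and 177 with 2DG, against 616 and 573 without it (log2 fold change -1.50, SE 0.18, adjusted p = 0.00038). In the 3 genes the groups were well apart, and in bulk RNA fewer cells of a type and less RNA per cell cannot be told apart. Of 18 ligands, co-receptors and inhibitors 7 had a positive sign, and the median was -0.15. Their summed level was 16750 to 16912 with 2DG and 15627 to 15645 without it. Without the Activin A libraries 4 were called higher and 5 lower. With all libraries 4 were called lower and the other 14 were not called. The fourth was TGFB2, at 36.3 and 50 with 2DG against 110 and 122 without it (log2 fold change -1.42, adjusted p = 0.0065, and 0.025 to 0.085 with 1 library left out, over 0.05 without E7+TGFb replicate 2 or E7+TGFb+2DG replicate 1).

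Receptors, SMADs and targets of the branch moved both ways. SMAD7, an inhibitory SMAD that the pathway induces, had 573 and 596 with 2DG and 1008 and 1062 without it (log2 fold change -0.82, adjusted p = 0.00073), and PMEPA1, a membrane brake on SMAD2 and SMAD3, had 486 and 479 with 2DG, against 736 and 725 without it (log2 fold change -0.60, adjusted p = 0.0034). Both stayed called with any 1 library left out. Among other TGFb targets the actin-binding proteins TAGLN (log2 fold change 1.2, adjusted p = 0.0095) and TPM1 (0.89, adjusted p = 0.0081) were higher, and lost their calls with 1 library left out (0.057 to 0.088 and 0.051 to 0.079). SMAD3 had 753 and 745 with 2DG, against 1080 and 1114 without it (log2 fold change -0.55, adjusted p = 0.028, and 0.13 to 0.16 with 1 library left out). Of 22 receptors, SMADs and brakes 2 were called higher and 4 lower, and of 19 targets 2 higher and 3 lower.

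Most mesendoderm regulators that were called were lower. MIXL1 had 52 and 38.1 with 2DG and 153 and 182 without it (log2 fold change -1.88, SE 0.21, adjusted p = 0.00016). FGF8 had 36.3 and 32.6 with 2DG, against 106 and 103 without it (log2 fold change -1.58, adjusted p = 0.00061). WNT3, a ligand that starts the primitive streak, had 52.9 and 60.9 with 2DG, against 137 and 154 without it (log2 fold change -1.34, adjusted p = 0.00013). Both libraries with 2DG lay under both without it in each gene. The summed level of all 16 regulators was nevertheless higher with 2DG, at 6362 to 6394 against 5334 to 5353 without it. Of the 16, 12 had a negative sign and 4 a positive one. Of 16 tested 4 were called lower and 1 higher, NKX1-2 (log2 fold change 0.38, adjusted p = 0.014, and 0.096 to 0.11 with 1 library left out), and the list median was -0.56. EBF2, a transcription factor, had 88.2 and 88.1 with 2DG, against 352 and 377 without it (log2 fold change -2.03, adjusted p = 2.9e-05), and NTS, the neurotensin precursor, had 314 and 381 with 2DG, against 1303 and 1463 without it (log2 fold change -2.0, adjusted p = 0.00061).

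POU5F1, SOX2 and NANOG, the core factors of pluripotency, were not called. POU5F1, which has pseudogene copies that could share its reads, had 34339 and 33686 with 2DG and 36302 and 35901 without it (log2 fold change -0.09, SE 0.15, adjusted p = 0.79). SOX2 had 5242 and 5272 with 2DG, against 4659 and 4581 without it (log2 fold change 0.19, adjusted p = 0.18). NANOG had 3872 and 3793 with 2DG, against 4701 and 4763 without it (log2 fold change -0.30, adjusted p = 0.093). Without the Activin A libraries NANOG passed the test (adjusted p = 0.0012), as did SOX2 (adjusted p = 0.045). Of 23 core genes 5 were called higher and 2 lower, led by SALL4, a zinc finger factor, at 3025 and 3155 with 2DG against 2153 and 2123 without it (log2 fold change 0.53, adjusted p = 0.0022). The count was 1 to 2 higher with 1 library left out. OTX2, a factor of the epiblast and forebrain, had 438 and 462 with 2DG, against 214 and 210 without it (log2 fold change 1.08, adjusted p = 0.00027). It was 1 of 4 called higher among 13 neural regulators, with 1 lower. The summed level of the 13 was 11192 to 11462 with 2DG and 11883 to 11913 without it. KLF4, a factor of the naive state, had 212 and 216 with 2DG, against 101 and 89 without it (log2 fold change 1.17, adjusted p = 0.0023), in a naive list of 14 with 1 higher and 1 lower.

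Part of the cell division genes were lower with 2DG. MCM6, a subunit of the replicative helicase whose promoter carries the E2F matches above, had 3358 and 3377 with 2DG and 5502 and 5460 without it (log2 fold change -0.70, SE 0.11, adjusted p = 0.0015). HMMR, a spindle protein, had 970 and 1045 with 2DG, against 2070 and 2121 without it (log2 fold change -1.06, adjusted p = 0.00022). Both kept their calls with any 1 library left out. Of 33 S phase genes 15 were called lower and the other 18 were not called, with a median of -0.35. The count depended on the libraries, with 2 to 4 lower with 1 library left out and 22 lower and 2 higher without the Activin A libraries. Of 25 genes of G2 and mitosis 5 were called lower and 1 higher (median -0.26), and 1 was lower with 1 library left out. Replication-dependent histone genes, listed as a sign of RNA quality because their transcripts lack poly(A) tails, had a median of -0.32 over 12 genes. All 12 were not called. Because these genes depend on replication, RNA quality and S phase cannot be told apart in this median. The part of RNA quality in the S phase result was not tested.

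Sterol and heat shock genes also fell in part. HMGCS1, an early enzyme of cholesterol synthesis, had 4210 and 4408 with 2DG and 8635 and 8526 without it (log2 fold change -0.99, adjusted p = 0.0012). Of 25 genes of cholesterol synthesis and uptake 6 were called lower and the other 19 were not called, with a median of -0.21, 1 lower with 1 library left out and 12 lower without the Activin A libraries. HSP90AA1, a cytosolic chaperone with pseudogene copies, had 39942 and 40458 with 2DG, against 60091 and 60234 without it (log2 fold change -0.58, adjusted p = 0.004), while HSPA9, a mitochondrial chaperone, had 20505 and 21027 with 2DG, against 12569 and 12774 without it (log2 fold change 0.71, adjusted p = 0.0015). Of 26 heat shock genes 4 were called lower and 1 higher. The feedback genes of FGF and ERK signalling had 4 of 20 lower, among them the phosphatase DUSP6, at 1772 and 1820 with 2DG against 3586 and 3611 without it (log2 fold change -1.0, adjusted p = 0.0024), and 2 higher. Of 29 collagens, laminins, integrins and matrix genes 4 were called higher, 2 lower and 23 not called, with a median of 0.017. Among them were COL6A3 at 352 and 347 with 2DG against 46.2 and 48.7 without it (log2 fold change 2.86, adjusted p = 0.0029) and COL5A2 at 1064 and 1017 with 2DG against 2255 and 2321 without it (log2 fold change -1.14, adjusted p = 0.00085). ULBP1, a stress ligand for the NKG2D receptor of natural killer cells, had 100 and 75.1 with 2DG, against 8.39 and 5.62 without it (log2 fold change 3.47, adjusted p = 0.001).

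Among called genes that averaged at least 100 in the higher group, the 12 largest changes in each direction also held genes outside these pathways. The receptor kinase DDR2 (log2 fold change 3.33), the peroxin-like PEX5L (3.16), the adrenergic receptor ADRA2A (3.05) and VLDLR-AS1 (3.24) were higher, the last uncertain because the strand setting of the counting is not given in the sources used here. The guanylate cyclase subunit GUCY1B3 (-2.42), the guanine deaminase GDA (-2.26), the collagen COL8A1 (-2.25), STARD8 (-2.07), tenomodulin, TNMD (-1.98), PLBD1 (-1.92) and the semaphorin SEMA3C (-1.78) were lower. All of these stayed called with any 1 of the 4 libraries left out.

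The response to 2DG was set beside that in the other 3 media, which used other libraries. Of the 914 genes higher in TGFb medium, 667 (73.0%) were also called higher in E7, 180 (19.7%) in Activin A medium and 340 (37.2%) in NODAL medium. These are 27.4% of the 2433 called higher in E7, 72.9% of the 247 in Activin A medium and 65.4% of the 520 in NODAL medium, and 121 genes were called higher in all 4. Of the 730 lower genes 556 (76.2%) were called lower in E7, 20 (2.74%) in Activin A medium and 212 (29%) in NODAL medium, which are 22.4% of 2480, 54.1% of 37 and 45.9% of 462, and 10 were called lower in all 4. The share of all tested genes called higher was 14.6% in E7, 1.48% in Activin A medium and 3.11% in NODAL medium, and called lower 14.8%, 0.221% and 2.76%. Over the genes called higher in TGFb medium the median log2 fold change was 0.75 there, 0.68 in E7, 0.38 in Activin A medium and 0.48 in NODAL medium, and over those called lower it was -0.59, -0.58, -0.24 and -0.36. The genes were chosen by their values in TGFb medium, which bears on these medians and on the shares of sign that follow. The share over all genes tested was not computed. The sign was shared with TGFb medium in 98.2% of the higher and 98.1% of the lower genes in E7, 93.1% and 88.4% in Activin A medium and 95.1% and 94.0% in NODAL medium. Across the genes the log2 fold change in TGFb medium had a Pearson correlation of 0.59 with that in E7, 0.46 with Activin A medium and 0.57 with NODAL medium, as a description.

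**Figure D4:**
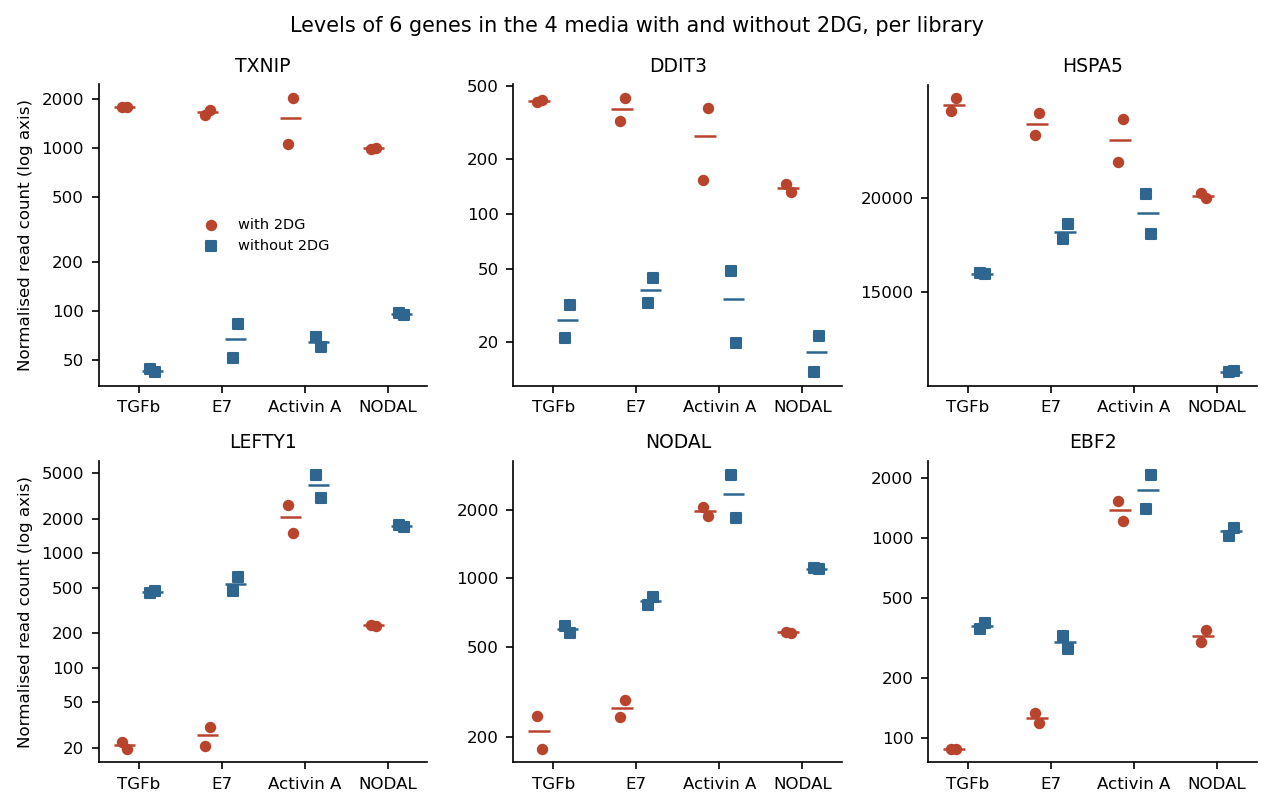
Normalised read counts (log axis) of 6 genes in each library of the 4 media, with 2DG (circles) and without it (squares), with group means as bars. TXNIP, DDIT3 and HSPA5 are higher with 2DG in each medium, and LEFTY1 with 2DG is at 22.5 and 19.6 in TGFb medium but at 2643 and 1484 in Activin A medium.

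TXNIP had a log2 fold change of 5.35 in TGFb medium, 4.64 in E7, 4.48 in Activin A medium and 3.37 in NODAL medium, and its difference from E7 was not called (0.71, SE 0.35, adjusted p = 0.41), nor was that from NODAL medium (1.98, SE 0.35, adjusted p = 0.17). HSPA5 had 0.74, 0.47, 0.32 and 0.77 in the same order, and DDIT3 3.95, 3.25, 2.91 and 2.93. For LEFTY1 the log2 fold change was -4.37 in TGFb medium and -4.35 in E7, a difference of -0.02 (adjusted p = 0.98). Without 2DG LEFTY1 averaged 454 ± 11.9 in E7+TGFb and 538 ± 106 in E7 (SD, n = 2 each).

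Tests of the difference in response called few genes. Between TGFb medium and E7 the count by limma was 0 (0%); before adjustment 2023 genes had p under 0.05, and after it the lowest p was 0.41. There edgeR and DESeq2 also called 0, while 1064 were higher and 1393 lower without the Activin A libraries. Between TGFb medium and NODAL medium the count was also 0 (0%), with 1217 genes at p under 0.05 before adjustment and a lowest adjusted p of 0.095. For that difference edgeR called 0 and DESeq2 15, and 244 genes were called without the Activin A libraries. In the difference from E7 the log2 term followed transcript length across genes (Spearman's rho -0.43), as did the response in E7 itself (0.34). The same held for the difference from Activin A medium (-0.32) and the response there (0.35), and less for the difference from NODAL medium (0.14) and the response there (-0.13), beside -0.0043 for the response in TGFb medium. The part of transcript length in the differences between media was not tested.

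Between TGFb medium and Activin A medium 11 genes were called (0.0658%), 10 of them with a lower log2 fold change with 2DG in TGFb medium. LEFTY1, with a log2 fold change of -4.37 in TGFb medium, had 2643 and 1484 in E7+ActivinA+2DG and 4828 and 2993 in E7+ActivinA (log2 fold change -0.94), a difference of -3.43 (SE 0.37, adjusted p = 0.0021). ERVH48-1, a gene of an endogenous retrovirus that encodes suppressyn, had 626 and 658 in E7+TGFb+2DG and 2079 and 2130 in E7+TGFb, and 1690 and 1611 in E7+ActivinA+2DG and 1908 and 2022 in E7+ActivinA, a difference of -1.46 (SE 0.14, adjusted p = 0.0011). PPP1R16B, a regulator of protein phosphatase 1, had 157 and 172 in E7+TGFb+2DG and 510 and 443 in E7+TGFb, and 1053 and 1081 in E7+ActivinA+2DG and 826 and 1091 in E7+ActivinA, a difference of -1.70 (SE 0.19, adjusted p = 0.0024). In TGFb medium the libraries with 2DG lay under those without it for each of these genes, and in Activin A medium the groups overlapped for PPP1R16B. SEMA3C (-1.82, adjusted p = 0.0039), EBF2 (-1.72, adjusted p = 0.014) and COL8A1 (-1.96, adjusted p = 0.018) were the other genes named by the rule. EBF2 lost its call without any 1 of the 4 TGFb medium libraries (adjusted p 0.071 to 0.11), and COL8A1 without E7+TGFb+2DG replicate 2 or either E7+TGFb library (0.11 to 0.16). For LEFTY2 the difference was -2.91 (adjusted p = 0.053) and for NODAL -1.28 (adjusted p = 0.1). The count of 11 turned on single libraries, from 5 to 7 without a library of E7+TGFb or E7+TGFb+2DG to 25 and 3337 without E7+ActivinA replicate 1 or 2 and 37 and 43 without E7+ActivinA+2DG replicate 1 or 2, and with only the 8 libraries concerned it was 0.

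**Figure D5:**
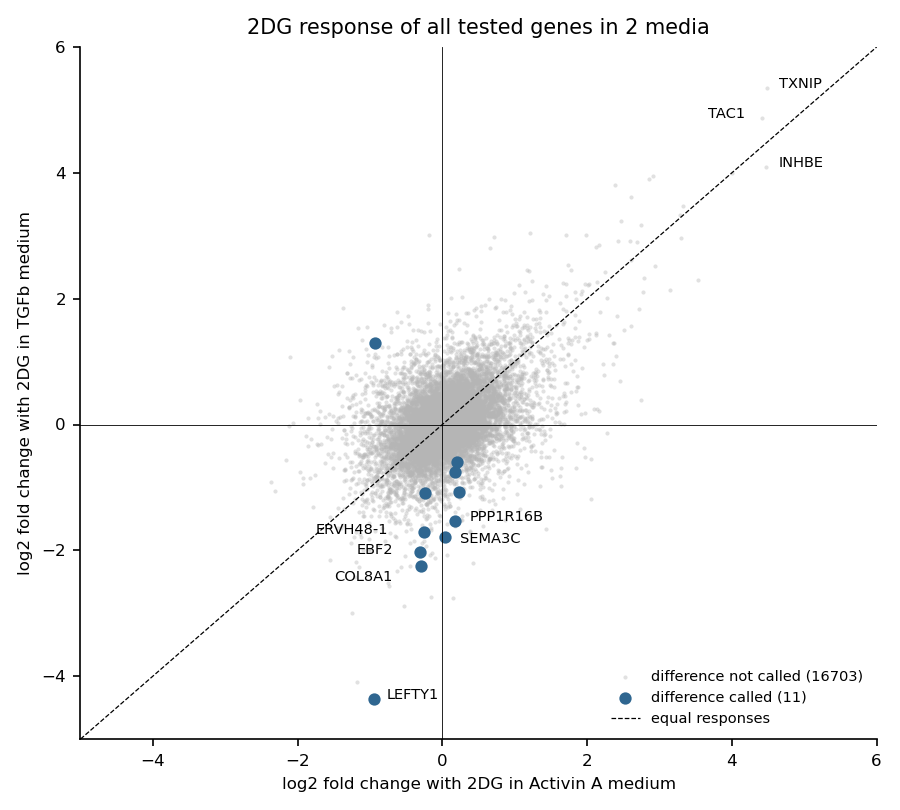
The log2 fold change with 2DG in TGFb medium and in Activin A medium, 1 axis each and 1 point per tested gene, with the 11 genes whose difference was called as large points. LEFTY1, at -4.37 in TGFb medium and -0.94 in Activin A medium, lies far from the dashed line of equal responses, while TXNIP, TAC1 and INHBE lie near it.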

How the data were processed

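The table deposited by the authors holds a normalised signal, in which each gene's count was scaled by a single factor per library. Trimmomatic 0.36, featureCounts 1.5.3, STAR, hg38 and DESeq2 1.26.0 are named in the submitters' processing notes. The annotation, strand setting and gene filter are not given in the sources used here. In each library all values were whole multiples of 1 step (tolerance 1e-06, 100% of values), from which whole reads were recovered. The smallest recovered count of any listed gene in any library was 1. Genes without reads in a library, such as any that 2DG switched fully on or off, are therefore missing from the table. Of 17738 genes, 16714 reached 10 in 2 or more libraries and were tested with limma 3.58.1 (R 4.3.3, intensity trend, log2 of the value plus 1, 8 group means, 16 libraries). Adjustment was by Benjamini-Hochberg over all genes tested, with a threshold of 0.05, two-sided. The pseudocount makes the fold changes of low genes too small. A permutation test of 2 against 2 libraries cannot go below p = 0.33. The code was tested on simulated data. The alternatives included edgeR 4.0.16 and DESeq2 1.42.0 on recovered reads.

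Genes were named by a rule: the 12 largest called changes each way, clone names left out, where the higher group averaged at least 100 and the groups did not overlap, up to 5 called members per list, fixed names, and the 6 largest called differences each way between media where the highest group averaged at least 100. The members, the 54 lists and the motifs were chosen with earlier results of these data known. Positions are from GENCODE 29 and promoters from RefSeq, the first window listed per gene, for 11143 genes. The replicate numbers did not pair the 4 libraries compared (correlation of replicate differences 0.015 for E7+TGFb+2DG with E7+TGFb). It was 0.39 for E7+2DG with E7 and for E7+ActivinA+2DG with E7+ActivinA, and 0.039 for E7+NODAL+2DG with E7+NODAL. It was above 0.1 in 4 of all 28 pairs of groups. Other pairs were strongly negative, such as -0.70 for E7 with E7+ActivinA, -0.52 for E7+2DG with E7+ActivinA and -0.33 for E7 with E7+NODAL. Replicate differences were thus related between some groups that share the error term.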

Additional observations from a re-analysis of the deposited data

Results flagged for a closer look

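The response to 2DG differed by test between TGFb medium and Activin A medium for 11 genes. The differences in log2 response, TGFb medium minus Activin A medium, were -3.43 for LEFTY1, -1.96 for COL8A1, -1.72 for EBF2, -1.82 for SEMA3C, -1.70 for PPP1R16B and -1.46 for ERVH48-1, with adjusted p from 0.0011 to 0.018 by limma. With only the 8 libraries of these media none of the 6 was called (adjusted p 0.1 to 0.5). The Activin A libraries differed most between replicates, at 57.3 times the counting variance, and the differences followed transcript length across genes (Spearman's rho -0.32). The part of either in the differences was not tested.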

How the results depend on the processing

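The 1644 calls for 2DG in TGFb medium became 6332 with only the 4 libraries compared (1642 shared), 4109 without the Activin A libraries (1643 shared) and 448 when the log2 fold change also had to pass 1 in size, and 370 to 402 with 1 of the 4 libraries left out. The replicate numbers did not pair the 4 libraries compared. With the replicate block in the fit of all libraries 790 genes were higher and 602 lower. With only the 4 libraries and the replicate block 6518 were called, an alternative chosen after seeing the data. Other scalings, pseudocounts, filters, edgeR and DESeq2 stayed within 1.5 times of the 1644.

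For the difference from E7, 0 calls became 1525 with only the libraries concerned and 2457 without the Activin A libraries. For NODAL medium 0 became 1895 and 244, and 15 with DESeq2. For Activin A medium 11 became 0 with only the libraries concerned, 57 with DESeq2 and 5 to 3337 with 1 library left out. HK2, which did not pass, changed sign without E7+TGFb replicate 2 (-0.049) and without E7+TGFb+2DG replicate 1 (-0.0060), its range being -0.049 to 0.085 with 1 library left out. In fits with 1 library left out, that group's spread was taken from the other groups. Depth limits genes near the minimum of 10.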
